A study of Mus musculus with 12 samples.

Results

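The IRX3_S389A and IRX3_S361A constructs, which differ in the serine of the transcription factor IRX3 that is replaced by alanine, were compared directly in stimulated mouse macrophages. The comparison used the 3 libraries labelled IRX3_S389A and the 3 labelled IRX3_S361A, 6 of the 12 libraries of the series, and 13369 of the 55401 genes in the deposited table. Genes were kept where at least 3 of the 12 libraries held at least 10 normalized counts, that is, reads divided by 1 size factor per library. All cells were bone-marrow-derived macrophages (BMDMs) of the Irx3-/- genotype and the C57BL/6J strain, so the controls lack the gene as well. Differentiation had taken 7 days in M-CSF, the macrophage growth factor, at 20 nM. Adeno-associated virus (AAV) carried GFP, wild-type IRX3 (IRX3_WT), IRX3_S361A or IRX3_S389A into the cells. All 12 samples then received lipopolysaccharide (LPS), a bacterial cell wall component, at 100 ng/ml for 4 h, and total RNA was sequenced. Each construct had 3 libraries. Whether the 3 stem from different animals or cultures is not in the labels, so p-values measure only the spread between these libraries. The sources used here do not give the promoter of the virus, the share of cells infected or the age of the mice. No unstimulated sample was analysed here, so every value describes LPS-treated cells that received a construct. Without cells that keep their own Irx3, the level of the constructs cannot be set against the natural level.

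IRX3 belongs to the Iroquois family of homeobox proteins, which bind DNA and set transcription in developing and adult tissues. Alanine lacks the hydroxyl group that kinases phosphorylate on serine, so a serine-to-alanine construct is a common means of asking what a phosphorylation site does. In macrophages LPS is sensed by Toll-like receptor 4. An early arm through MYD88 drives NF-kappaB and MAP kinases and the first cytokines. A second arm through TICAM1 drives IRF3, interferon beta and then the interferon-stimulated genes.

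The codons at both named positions were read from the mouse reference, to show which residue each name points to there. The gene, Irx3 (ENSMUSG00000031734.13), occupies 91798525 to 91802067 of chromosome 8 in GRCm38 and is read from the minus strand. Its 2 coding transcripts in GENCODE encode 522 and 507 residues, and in each of them both positions lie in exon 2 of 4 and are serine codons. The sequences below run 5′ to 3′ along the coding strand, at chr8:91799974-91800012 and chr8:91799890-91799928, with the serine codon in capitals.
Irx3, codon replaced in IRX3_S361A: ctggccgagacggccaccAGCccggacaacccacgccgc
Irx3, codon replaced in IRX3_S389A: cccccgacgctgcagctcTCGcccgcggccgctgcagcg
In each sequence the codon after the serine encodes proline, CCG at the S361A position and CCC at the S389A position. Serine followed by proline is the motif that proline-directed kinases such as MAP kinases prefer. Whether the constructs carry this mouse sequence is not given in the sources used here, so "replaced" above means the mouse codon at that position.

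Irx3 itself, the targeted gene, was read first. Its normalized counts were 324, 364 and 358 in the IRX3_S361A libraries and 194, 203 and 165 in the IRX3_S389A libraries. All IRX3_S361A libraries lay above all IRX3_S389A libraries, and no read of Irx3 was found in the GFP libraries. The difference was -0.90 on the log2 scale (SE 0.19, adjusted p = 0.000867 in limma), which is 1.86-fold. Values of the IRX3_WT libraries, 165, 170.3 and 196, overlapped with those of IRX3_S389A. The position of the substitution and the amount of Irx3 transcript therefore cannot be told apart in any result below.

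Deposited totals did not overlap between the mutants. They ran from 18743369 to 18889490 with IRX3_S361A and from 19510275 to 19639425 with IRX3_S389A, and 18342 to 18649 genes had a value above 0. A count of 3 reads, taken here as the floor of detection, equals 2.98 to 3.10 normalized counts. Pairs of libraries within a group differed by more than sampling noise (chi-square per gene 2.68 to 4.98), so none was treated as a duplicate. The neutrophil genes Ly6g, Mpo and Elane and the lymphocyte granule gene Nkg7 were at 0 in all 6.

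The mutants differed in many genes by small amounts. Of the 13369 genes tested, 1359 passed (10.2%; limma, Benjamini-Hochberg adjusted p under 0.05), 936 of them higher with IRX3_S389A (7.00%) and 423 lower (3.16%). Without any adjustment 2929 genes had a p under 0.05. The median size of the called differences was 0.26 on the log2 scale, 110 genes were at least 1.5-fold apart and 28 at least 2-fold. Without IRX3_S361A replicate 3 the test called 904 genes, 245 of them lower, and without IRX3_S389A replicate 3 the lower genes were 275. In 1319 of the called genes the 3 libraries of each group did not overlap, a separation seen in 25.9% of all genes tested. The split by direction depended on scaling. Equal totals in all libraries gave 597 higher and 1053 lower genes, and moved the median over the tested genes from -0.002 to -0.06 on the log2 scale. Genes said below to have risen or fallen kept their direction and their call under equal totals unless said otherwise, and list counts under that scaling follow in brackets where they differed in the split or by over 1.5 times. Plain settings below means limma without its trend and robust settings, which called 684 genes, and list counts under them are given where they were over 1.5 times apart.

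Each list count below stands beside 7.00% higher and 3.16% lower among all genes tested. A count near these shares is no result about its list. The lists were chosen with earlier results of these data known, so a count above the shares is description and not independent evidence. The shares over all genes were not matched to a list for abundance, and abundant genes can pass with small differences. Where a list is given below with 0 members in a direction, edgeR and DESeq2 called 0 in it as well. Both used the recovered reads of all 12 libraries. At most 1 member had an unadjusted limma p under 0.05 in that direction. DESeq2 leaves some genes without an adjusted p, and those could not be called by it. A further edgeR fit on 9 of the 12 libraries is not counted here, because it held only replicate 1 of IRX3_S361A. The list of genes tied to noradrenaline handling, a theme of macrophages in nerve-rich tissue, had 3 tested members, of which 0 passed by any of these tests or had an unadjusted p under 0.05.

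**Figure D1:**
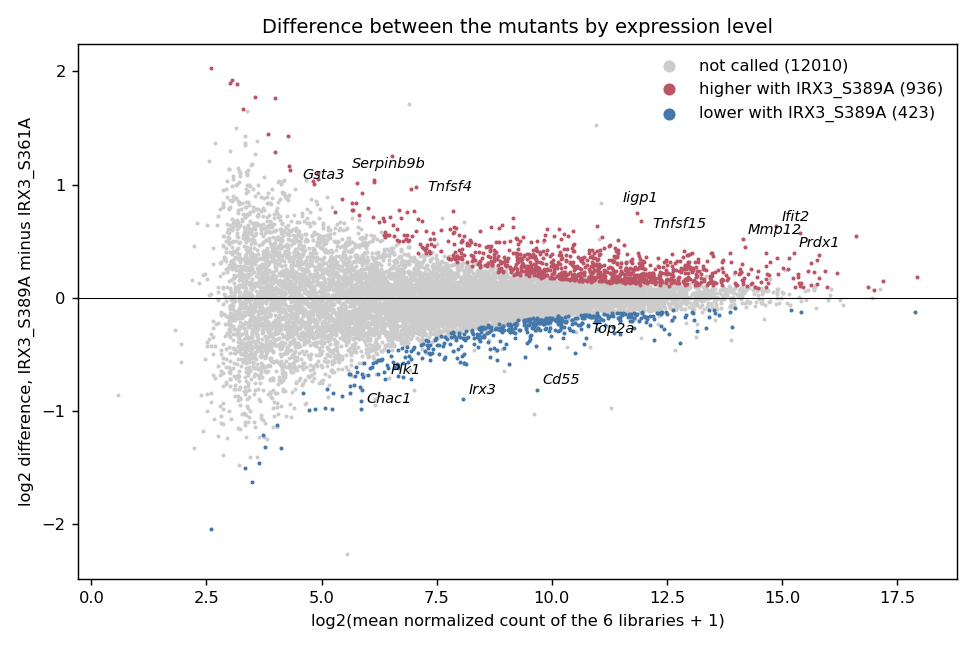
Each point is 1 of the 13369 genes tested, with the log2 of its mean normalized count over the 6 libraries on the x axis and its log2 difference, IRX3_S389A minus IRX3_S361A, on the y axis. The 936 genes called higher and 423 called lower mostly lie within 1 log2 unit of 0, and Ifit2 and Prdx1 stand at the abundant end of the rises.

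Interferon-stimulated genes, the antiviral program that interferon beta induces, were higher with IRX3_S389A. Of 54 tested members of the effector list 39 were higher and 0 lower, and the median log2 difference was 0.30. Across all genes tested 7.00% were higher and the median was -0.002. Ifit2 (ENSMUSG00000045932.12, chromosome 19, 34550694 to 34576419 in GRCm38, plus strand), which encodes an RNA-binding inhibitor of viral translation, held 23717, 23972 and 22387 normalized counts with IRX3_S361A and 35117, 36723 and 36663 with IRX3_S389A. Every IRX3_S389A library lay above every IRX3_S361A library, and the difference was 0.63 on the log2 scale (SE 0.04, adjusted p = 6.39e-11 in limma). The IRX3_WT libraries, at 29425, 28667 and 25768, lay between the mutants, and the GFP libraries, at 19875, 20016 and 18709.8, below both.

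Other members of the effector list span several functions. Cd274, the gene of the checkpoint ligand PD-L1, rose from 7328 ± 262 to 9620.2 ± 114 normalized counts (SD, n = 3 each), by 0.39 on the log2 scale. The Schlafen genes, which restrain viral RNA and cell growth, rose together: Slfn9 by 0.37, Slfn8 by 0.32 and Slfn5 by 0.32 on the log2 scale. Oasl1, an oligoadenylate synthetase-like gene, rose by 0.30 on that scale. Rsad2, the gene of the antiviral enzyme viperin, rose by 0.55 and the death ligand gene Tnfsf10 by 0.63 on the log2 scale. Among those that did not pass were Ifitm3, which blocks viral entry, with a log2 difference of 0.06, and the oligoadenylate synthetase genes Oas2 and Oas3, with log2 differences of 0.05 and 0.10. Slfn8 and Slfn9 are close copies, and how the counter split their reads is not known. The list count was 33 to 44 in fits without 1 library.

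Guanylate-binding proteins and immunity-related GTPases, which attack the vacuoles of intracellular microbes, were higher in 14 of 16 tested cases and lower in 0, and the median log2 difference was 0.36. Iigp1 (ENSMUSG00000054072.12) held 2779.5, 2898 and 2571 normalized counts with IRX3_S361A and 4390.4, 4729 and 4771 with IRX3_S389A. The groups did not overlap, and Iigp1 rose by 0.75 on the log2 scale (SE 0.05, adjusted p = 1.29e-10 in limma), or 1.69-fold. Among the guanylate-binding proteins Gbp6 rose by 0.55, Gbp2 by 0.34, Gbp7 by 0.33 and Gbp3 by 0.31 on the log2 scale. The T cell-specific GTPase gene Tgtp2 went from 2054, 2164 and 1967 to 2806, 2981 and 2759 normalized counts, again without overlap. The members that did not pass were Gbp8 and Gbp10, with log2 differences of 0.09 and 0.50. The Gbp genes, and Tgtp1 and Tgtp2, are near copies of each other, and exons of Gbp6 share 29.0% of their bases with another gene, so reads of these members may be split or shared.

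Promoters of these genes were searched because the list is defined by interferon induction. The motif was the core of the interferon-stimulated response element, GAAA followed by 2 bases of any kind and GAAA again, on either strand, in the 250 bases before the RefSeq start site (GRCm38.p6). It was present in 9 of 9 GTPase genes with a promoter in the table, 15 of 43 effectors (34.9%) and 6 of 16 nucleic acid sensors (37.5%). Of all 32851 promoters 2.98% held it, as did 3.56% of the 9493 tested genes with a promoter. Among genes higher with IRX3_S389A the share was 9.75% (71 of 728) and among genes lower 3.18% (11 of 346). The windows below show the motif in capitals, on the strand of the gene, for 8 GTPase, Schlafen and sensor genes whose match lay within 70 bases of the start site. Windows were taken only for some of the genes named by the rule given under processing, Iigp1 not among them. Members without a window may hold a near match as well. The match of Slfn5 lay 155 bases before it and is not shown, and a second Mndal promoter in the table had its match 54 bases before its own start. Capitals that begin with TTTC are the motif read on the opposite strand.
Gbp2, chr3:142620579-142620638: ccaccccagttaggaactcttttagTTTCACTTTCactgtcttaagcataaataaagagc
Gbp7, chr3:142530258-142530317: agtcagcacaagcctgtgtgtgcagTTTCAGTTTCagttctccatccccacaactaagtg
Gbp3, chr3:142559974-142560033: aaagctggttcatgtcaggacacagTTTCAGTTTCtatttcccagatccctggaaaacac
Tgtp2, chr11:49064248-49064307: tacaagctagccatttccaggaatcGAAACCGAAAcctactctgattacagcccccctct
Slfn9, chr11:82991841-82991900: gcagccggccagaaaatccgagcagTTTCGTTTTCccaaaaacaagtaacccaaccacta
Slfn8, chr11:83020824-83020883: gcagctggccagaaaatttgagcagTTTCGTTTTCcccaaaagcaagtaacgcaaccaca
Ifi203, chr1:173942493-173942552: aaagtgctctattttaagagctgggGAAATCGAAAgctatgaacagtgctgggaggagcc
Mndal, chr1:173880189-173880248: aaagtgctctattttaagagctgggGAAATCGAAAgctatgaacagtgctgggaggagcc
In these 8 windows the motif lies 35 to 70 bases before the start site. The windows of Ifi203 and Mndal hold the same sequence. A match describes letters in a window and says nothing of binding.

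Sensors of foreign nucleic acid were higher as well. Of 21 tested members 14 were higher and 0 lower (13 and 1 with equal totals), and the median log2 difference was 0.23. Ifih1 (ENSMUSG00000026896.14, chromosome 2, 62595798 to 62646255 in GRCm38, minus strand), which encodes the double-stranded RNA sensor MDA5, held 16167, 16224 and 14903 normalized counts with IRX3_S361A and 21172, 21796 and 21564 with IRX3_S389A. The mutants did not overlap, and Ifih1 rose by 0.45 on the log2 scale (SE 0.04, adjusted p = 1.51e-11 in limma). The DNA sensor gene Aim2 rose by 0.44, its relatives Ifi203 and Mndal by 0.41 and 0.36, and Tlr3, the endosomal receptor for double-stranded RNA, by 0.42, all on the log2 scale. Ifi203 and Mndal belong to a cluster of similar genes, so their reads may be shared. The adaptor genes Mavs and Tmem173, which relay RNA and DNA sensing, did not pass, with log2 differences of 0.12 and 0.11.

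Upstream of these genes the picture was mixed. Ifnb1, the gene of interferon beta, was of low abundance, with 34.4, 34.8 and 27.1 normalized counts in IRX3_S361A and 58.9, 42.3 and 48.8 in IRX3_S389A libraries. The groups did not overlap, but the log2 difference of 0.62 (SE 0.27) did not pass (limma adjusted p = 0.154). Among 22 tested genes of interferon induction and signalling 10 were higher and 1 lower (9 and 3 with equal totals), and the median log2 difference was 0.12. The 10 higher were 5 under plain settings. The interferon regulatory factor genes rose, Irf1 by 0.32, Irf5 by 0.22 and Irf7 by 0.20, as did the feedback inhibitor gene Socs1 by 0.34 and the kinase gene Tbk1 by 0.18, all on the log2 scale. Stat2, a transcription factor gene of interferon signalling, rose by 0.18 on that scale. Ikbke, which encodes a kinase related to TBK1, was the member that fell, by 0.14 on the log2 scale, a call lost without IRX3_S361A replicate 1 or IRX3_S389A replicate 3 (limma adjusted p = 0.125 to 0.171). Irf3, Irf9, Ticam1 and Traf3, which carry the signal from the receptor to interferon beta and from its receptor to the nucleus, did not pass, with log2 differences of -0.13, -0.02, -0.03 and -0.02.

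**Figure D2:**
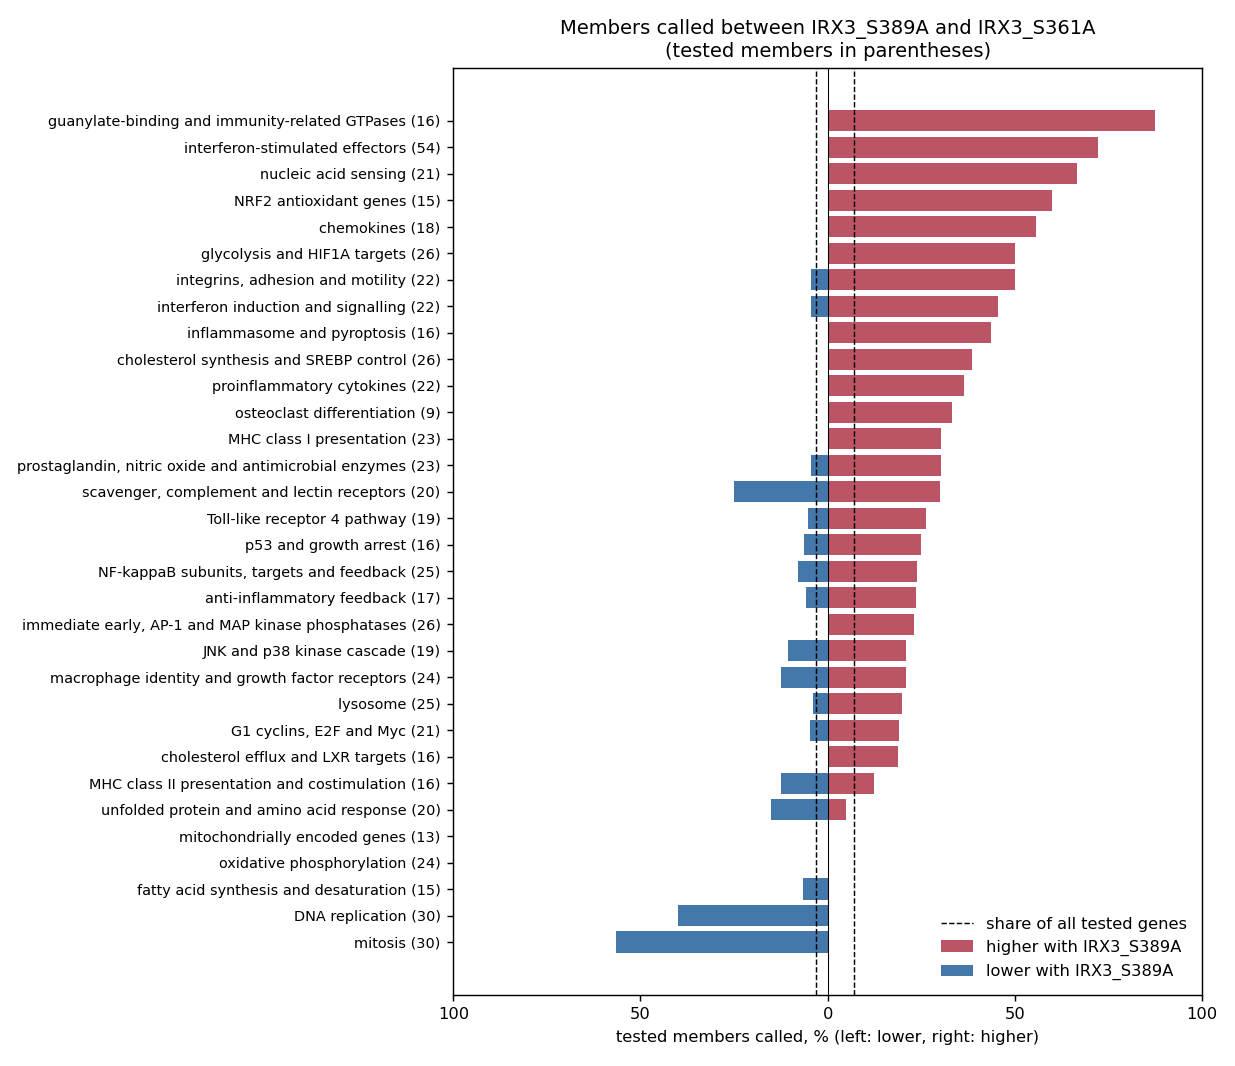
Bars show the share of tested members of each gene list that passed the test, to the right where higher with IRX3_S389A and to the left where lower, with dashed lines at the shares of all genes tested (7.00% and 3.16%). GTPase, interferon effector and nucleic acid sensing lists reach furthest right, and mitosis and DNA replication furthest left.

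Cytokines did not move as a block. Of 22 tested members of the proinflammatory list 8 were higher and 0 lower (8 and 1 with equal totals), and the median log2 difference of 0.06 was 0.01 with equal totals. The 8 include Il1rn, the gene of an antagonist, so not all of them are proinflammatory. Tnfsf15 (ENSMUSG00000050395.9, chromosome 4, 63727084 to 63745113 in GRCm38, minus strand), which encodes the costimulatory ligand TL1A, held 2919, 3322 and 2847 normalized counts with IRX3_S361A and 4682, 5046 and 4830.2 with IRX3_S389A. Without any overlap of the libraries, Tnfsf15 rose by 0.68 on the log2 scale (SE 0.05, adjusted p = 6.15e-11 in limma), 1.6-fold. Tnf rose from 32555 ± 777 to 38877 ± 1371 normalized counts (SD, n = 3 each), by 0.26 on the log2 scale. Il27, a cytokine subunit gene with ties to interferon signalling, rose by 0.46, the interleukin 15 gene by 0.42, the interleukin 1 receptor antagonist gene Il1rn by 0.33 and the macrophage growth factor gene Csf1 by 0.39 on the log2 scale. Il6 held 2820.0, 3238 and 3037 normalized counts against 3688, 3852 and 4007, without overlap, and rose by 0.35 on the log2 scale (limma adjusted p = 0.017). Its call was lost without IRX3_S361A replicate 1 or 3 or IRX3_S389A replicate 2 or 3 (limma adjusted p = 0.0596 to 0.0839).

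The interleukin 1 and 12 genes, strong early targets of LPS, did not pass. Il1b held 28221, 33981 and 30002 normalized counts with IRX3_S361A and 29497, 30620.3 and 28286 with IRX3_S389A, and the groups overlapped. Il1a held 1605 ± 148 and 1511 ± 51.5 normalized counts (SD, n = 3 each), with a log2 difference of -0.08. Il12b, the subunit shared by interleukins 12 and 23, held 925, 1094 and 893 normalized counts with IRX3_S361A and 905, 859 and 937 with IRX3_S389A. Its log2 difference was -0.10 (SE 0.06, adjusted p = 0.36 in limma), while all 3 IRX3_WT libraries, at 2348, 2105 and 2247, lay far above both mutants. A p that misses the threshold does not show that these genes were equal in the mutants.

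Chemokines, the attractants of other leukocytes, were higher in 10 of 18 tested cases and lower in 0 (8 and 1 with equal totals), and the median log2 difference was 0.22. The 10 higher chemokines were 6 under plain settings. Ccl5, which draws T cells and monocytes, held 13508, 13043 and 12202 normalized counts with IRX3_S361A and 16759, 17408 and 16821 with IRX3_S389A. The groups did not overlap, and Ccl5 rose by 0.40 on the log2 scale (SE 0.04, adjusted p = 8.16e-08 in limma). Ccl9, Ccl4 and Ccl3, attractants of monocytes and other leukocytes, rose by 0.24, 0.20 and 0.18 on the log2 scale. The T cell attractant gene Ccl22 rose by 0.59 from a mean of 121 ± 3.01 normalized counts (SD, n = 3). Cxcl10, which interferon induces, rose by 0.34 on the log2 scale (limma adjusted p = 0.0203), a call lost without IRX3_S361A replicate 2 or 3 or IRX3_S389A replicate 1 or 2 (limma adjusted p = 0.0595 to 0.072). The monocyte attractant gene Ccl2 did not pass, with 3570.1, 4061 and 3978 normalized counts against 4058, 4429 and 3912.

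**Figure D3:**
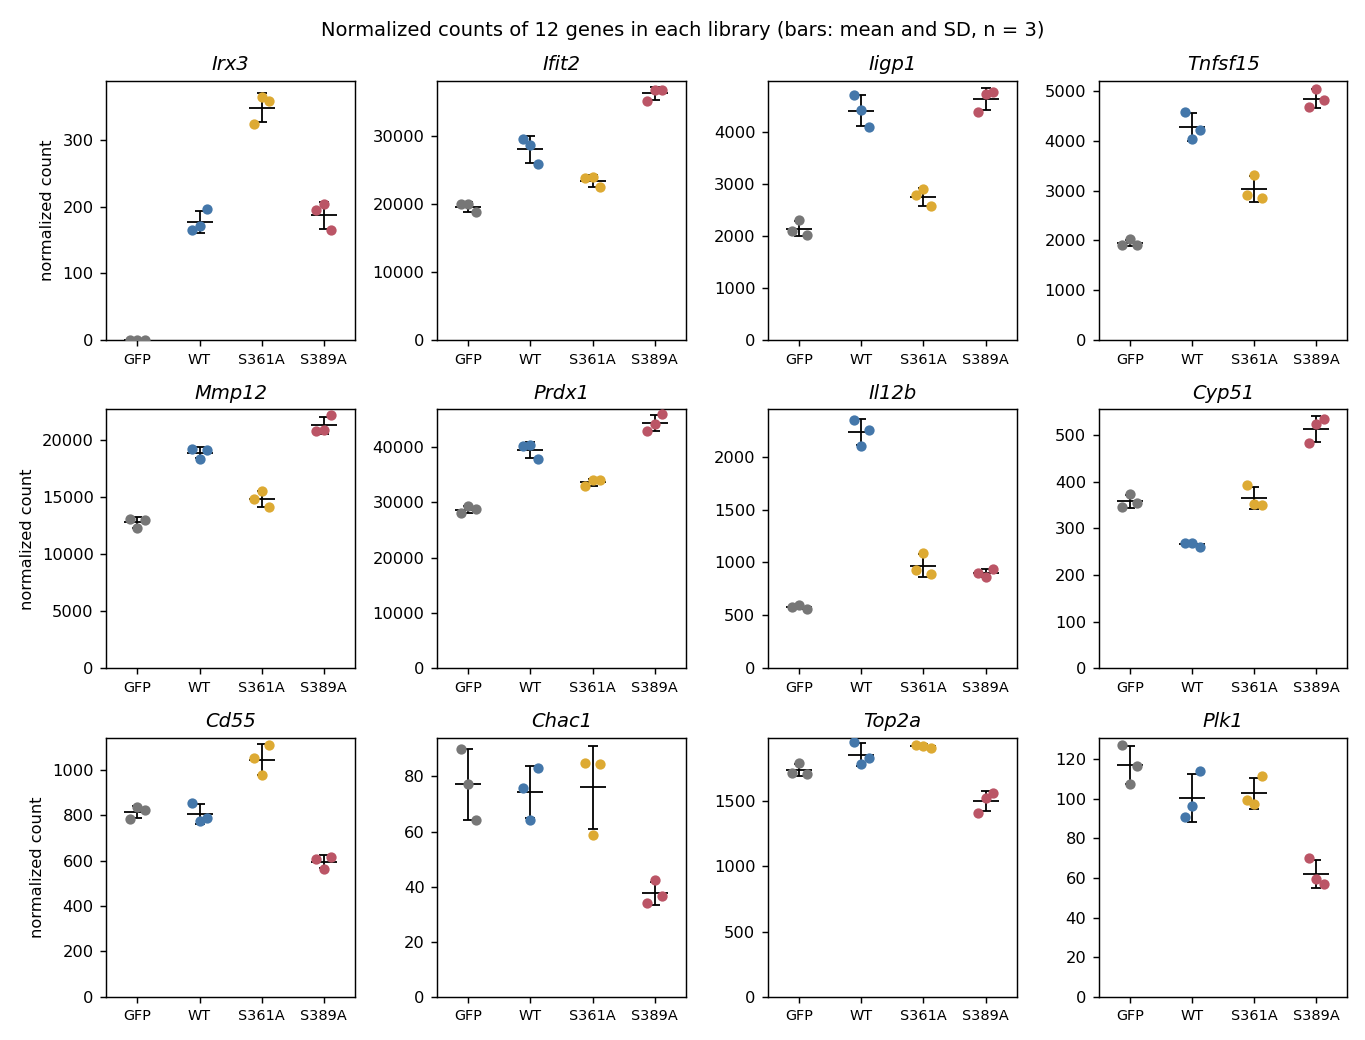
Points are the normalized counts of 12 genes in each of the 12 libraries, by construct, and bars give the mean and SD of 3 libraries on a linear axis from 0. The IRX3_S389A points of Ifit2, Iigp1, Tnfsf15, Mmp12, Prdx1 and Cyp51 lie above all IRX3_S361A points, those of Cd55, Chac1, Top2a, Plk1 and Irx3 below them, and those of Il12b among them.

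Gene lists around the signalling route from Toll-like receptor 4 to NF-kappaB and AP-1 included calls in both directions. Of 19 tested members of the receptor list 5 were higher and 1 lower (3 and 1 with equal totals), and the median log2 difference of 0.04 turned to -0.02 with equal totals. Tlr4 itself held 1107, 1186 and 1154 normalized counts with IRX3_S361A and 1234, 1252 and 1497 with IRX3_S389A. It rose by 0.20 on the log2 scale (limma adjusted p = 0.0212), but the call was lost with equal totals (limma adjusted p = 0.102), as well as without IRX3_S361A replicate 1 or 3 or IRX3_S389A replicate 3 (limma adjusted p = 0.0625 to 0.277). The ubiquitin ligase gene Peli1 and the kinase gene Ripk2 rose by 0.19 and 0.20 on the log2 scale. The member that fell was Tlr1, by 0.18 on that scale, which encodes a Toll-like receptor other than Toll-like receptor 4. The adaptor gene Myd88 did not pass, with a log2 difference of 0.04. The 5 higher were 3 under plain settings, and 3 without IRX3_S361A replicate 1 or 3 or IRX3_S389A replicate 3.

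Among 25 NF-kappaB subunits, targets and feedback genes 6 were higher and 2 lower (5 and 3 with equal totals), and the median log2 difference was 0.07. Malt1, a paracaspase that activates NF-kappaB, rose by 0.25, the brake Tnfaip3 by 0.23, the subunit gene Rel by 0.23 and the inhibitor gene Nfkbie by 0.22 on the log2 scale. Tnip3, another brake, fell by 0.12 on that scale, a call lost without IRX3_S361A replicate 2 or 3 or IRX3_S389A replicate 1 or 2 (limma adjusted p = 0.067 to 0.112). The subunit gene Relb fell by 0.15 on the log2 scale, a call lost without GFP replicate 3, IRX3_S361A replicate 1 or 2 or IRX3_S389A replicate 2 or 3 (limma adjusted p = 0.0503 to 0.234). Immediate early and AP-1 genes rose in 6 of 26 cases and fell in 0 (5 and 1 with equal totals), and their median was 0.14 on the log2 scale. Atf3, a stress-induced repressor of cytokine genes, held 5788, 5371 and 5078 normalized counts against 7096, 7274 and 6863, without overlap, and rose by 0.39 on the log2 scale (limma adjusted p = 2.21e-08). Egr1, Nr4a1 and the mRNA-destabilising Zfp36 rose by 0.41, 0.42 and 0.26 on that scale. Fos and Jun did not pass, with log2 differences of 0.13 and -0.01. In the JNK and p38 cascade 4 of 19 members were higher and 2 lower, and the median of 0.04 turned to -0.02 with equal totals. Mapk9, which encodes JNK2, rose by 0.23 on the log2 scale, while Mapk14, which encodes p38 alpha, did not pass, with a log2 difference of 0.15. The growth arrest gene Gadd45b rose by 0.26 on that scale. The falls were Mapk11, which encodes p38 beta, by 0.49, a call lost without IRX3_S361A replicate 3 or IRX3_S389A replicate 3 (limma adjusted p = 0.106 to 0.163), and Gadd45a by 0.21, a call lost without IRX3_S361A replicate 2 (limma adjusted p = 0.074). The count of 4 was 2 in each of the fits without IRX3_S361A replicate 2, IRX3_S361A replicate 3 or IRX3_S389A replicate 2, and 1 under plain settings.

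The count of inflammatory effector enzymes depended on the settings. Of 23 tested prostaglandin, nitric oxide and antimicrobial genes 7 were higher and 1 lower. Their median of 0.04 on the log2 scale turned to -0.02 with equal totals, where 3 were higher and 2 lower. Nos2, the inducible nitric oxide synthase gene, held 3559.9, 3661 and 3258 normalized counts with IRX3_S361A and 4258, 4630.0 and 4023 with IRX3_S389A. It rose by 0.30 on the log2 scale (SE 0.06, adjusted p = 0.00162 in limma) with no overlap of the groups. Ass1, which supplies arginine for that enzyme, rose by 0.25 and the cyclooxygenase 2 gene Ptgs2 by 0.23 on the log2 scale. Ptgs1, the constitutive cyclooxygenase gene, was the member that fell, by 0.35 on that scale, a call lost without GFP replicate 1, IRX3_S361A replicate 1 or 3 or IRX3_S389A replicate 1 or 3 (limma adjusted p = 0.0527 to 0.154). The count of 7 was 4 without IRX3_S361A replicate 1 or 3 or without IRX3_S389A replicate 2 or 3, and 0 under plain settings. Among 17 anti-inflammatory feedback genes 4 were higher and 1 lower (3 and 4 with equal totals). The itaconate-producing enzyme gene Acod1 rose by 0.15, and Il4ra, a subunit of the interleukin 4 receptor, fell by 0.24 on the log2 scale. That count of 4 was 2 without IRX3_S389A replicate 2, and 1 under plain settings.

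Inflammasome genes were higher in 7 of 16 tested cases and lower in 0 (4 and 0 with equal totals), and the median log2 difference was 0.16. Casp1, the protease that matures interleukin 1 beta, held 3622, 3612 and 3656 normalized counts with IRX3_S361A and 4040.2, 4356 and 4222 with IRX3_S389A. The mutants did not overlap, and Casp1 rose by 0.21 on the log2 scale (limma adjusted p = 0.000397). Naip2, a sensor of bacterial secretion systems, rose by 0.24 and the channel gene Panx1 by 0.59 on that scale. Nlrp3 did not pass, with a log2 difference of 0.08. Under plain settings, or without IRX3_S361A replicate 3, the count of 7 was 4.

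In antigen presentation, class I genes were higher in 7 of 23 tested cases and lower in 0 (4 and 0 with equal totals), and the median log2 difference was 0.08. Tap1, the peptide transporter gene, rose by 0.25, the immunoproteasome gene Psmb9 by 0.27 and Nlrc5, the activator of class I transcription, by 0.22 on that scale. The count of 7 was 3 without IRX3_S361A replicate 3 or IRX3_S389A replicate 2, and 0 under plain settings. Class II genes went both ways, 2 of 16 higher and 2 lower (1 and 5 with equal totals). H2-Aa held 9601, 9090.4 and 9156 normalized counts with IRX3_S361A and 8267, 8141 and 7954 with IRX3_S389A, and H2-Eb1 held 3757 ± 118 and 3408 ± 202 (SD, n = 3 each). These 2 peptide-presenting chains fell by 0.19 and 0.14 on the log2 scale, while the costimulatory receptor gene Cd40 rose by 0.25. H2-DMb1, which helps to load peptides, rose by 0.24 on that scale, a call lost with equal totals as well as without IRX3_S361A replicate 3 or IRX3_S389A replicate 3 (limma adjusted p = 0.0683 to 0.103). The call of H2-Eb1 was lost without GFP replicate 1, 2 or 3, IRX3_S361A replicate 1, 2 or 3, IRX3_S389A replicate 2 or 3 or IRX3_WT replicate 1 (limma adjusted p = 0.0511 to 0.305).

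Genes of cell division were lower with IRX3_S389A. Of 30 tested mitosis genes 17 were lower and 0 higher, and the median log2 difference was -0.34. Of all genes tested 3.16% were lower. Top2a (ENSMUSG00000020914.17, chromosome 11, 98992943 to 99024189 in GRCm38, minus strand), which untangles chromosomes before they separate, held 1933, 1919 and 1903 normalized counts with IRX3_S361A and 1412, 1523 and 1562 with IRX3_S389A. Every IRX3_S389A library lay below every IRX3_S361A library, and Top2a fell by 0.36 on the log2 scale (SE 0.05, adjusted p = 1.77e-06 in limma). Plk1, a kinase of mitotic entry, held 99.2, 97.4 and 112 normalized counts against 70.2, 59.4 and 56.9 and fell by 0.72 on the log2 scale (SE 0.15, adjusted p = 0.00126 in limma). Genes of cell cleavage fell, Anln by 0.58 and Kif23 by 0.70 on the log2 scale, as did the proliferation marker gene Mki67 by 0.20 and the condensin gene Smc2 by 0.29. The mitotic cyclin genes Ccnb1 and Ccnb2 did not pass, with log2 differences of -0.32 and 0.08. The count of 17 was 10 under plain settings and without IRX3_S361A replicate 3, and 22 with equal totals.

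DNA replication genes were lower in 12 of 30 tested cases and higher in 0, and the median log2 difference was -0.20. Uhrf1, which copies DNA methylation marks at the fork, held 847, 732 and 879.5 normalized counts with IRX3_S361A and 631, 621 and 627 with IRX3_S389A. Without any overlap of the libraries, Uhrf1 fell by 0.38 on the log2 scale (SE 0.06, adjusted p = 4.16e-05 in limma). Rrm2, which makes deoxynucleotides, fell by 0.36, the helicase activator gene Cdc45 by 0.50 and the helicase subunit gene Mcm5 by 0.19 on the log2 scale. The call of Mcm5 was lost without IRX3_S361A replicate 1 (limma adjusted p = 0.0585). The clamp gene Pcna did not pass, with a log2 difference of 0.10. The count of 12 was 7 without IRX3_S361A replicate 3 or IRX3_S389A replicate 2, 5 under plain settings and 18 with equal totals.

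The levels of both lists in the other constructs were not alike. Averaged over the 30 mitosis genes, the log2 level relative to the mean of all 12 libraries was -0.29 to -0.23 with IRX3_S389A, 0.05 to 0.16 with IRX3_S361A, 0.04 to 0.08 with IRX3_WT and 0.10 to 0.13 with GFP. The 3 IRX3_S389A libraries thus lay below the 9 others. For the 30 replication genes the ranges were -0.16 to -0.15 with IRX3_S389A, -0.23 to -0.17 with IRX3_WT, -0.02 to 0.07 with IRX3_S361A and 0.30 to 0.35 with GFP. There IRX3_S389A and IRX3_WT both lay below IRX3_S361A.

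Regulators of the G1 phase and of growth arrest were split. Mxd1, a repressor that opposes MYC, held 1068, 995 and 924 normalized counts with IRX3_S361A and 1481, 1442 and 1495 with IRX3_S389A. The groups did not overlap, and Mxd1 rose by 0.57 on the log2 scale (limma adjusted p = 5.66e-08), while Myc fell by 0.36. The call of Myc was lost without IRX3_S389A replicate 2 (limma adjusted p = 0.0648). The cyclin gene Ccnd2 and its kinase partner gene Cdk6 rose by 0.46 and 0.33 on the log2 scale. In all, 4 of 21 genes of the G1 list were higher and 1 lower (3 and 5 with equal totals). Of 16 p53 and growth arrest genes 4 were higher and 1 lower, with Plk2 up by 0.51, the cell cycle inhibitor gene Cdkn1a by 0.23 and Mdm2 by 0.18 on the log2 scale. The stress gene Sesn1 fell by 0.41 on that scale, a call lost without IRX3_S361A replicate 1 or 3 or IRX3_S389A replicate 2 or 3 (limma adjusted p = 0.0539 to 0.21). The death receptor gene Tnfrsf10b rose by 0.67 on that scale, a call lost without IRX3_S361A replicate 1 or IRX3_S389A replicate 3 (limma adjusted p = 0.112 to 0.216). The 4 higher p53 genes were 2 under plain settings. The median of the p53 list, 0.04, turned to -0.02 with equal totals.

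**Figure D4:**
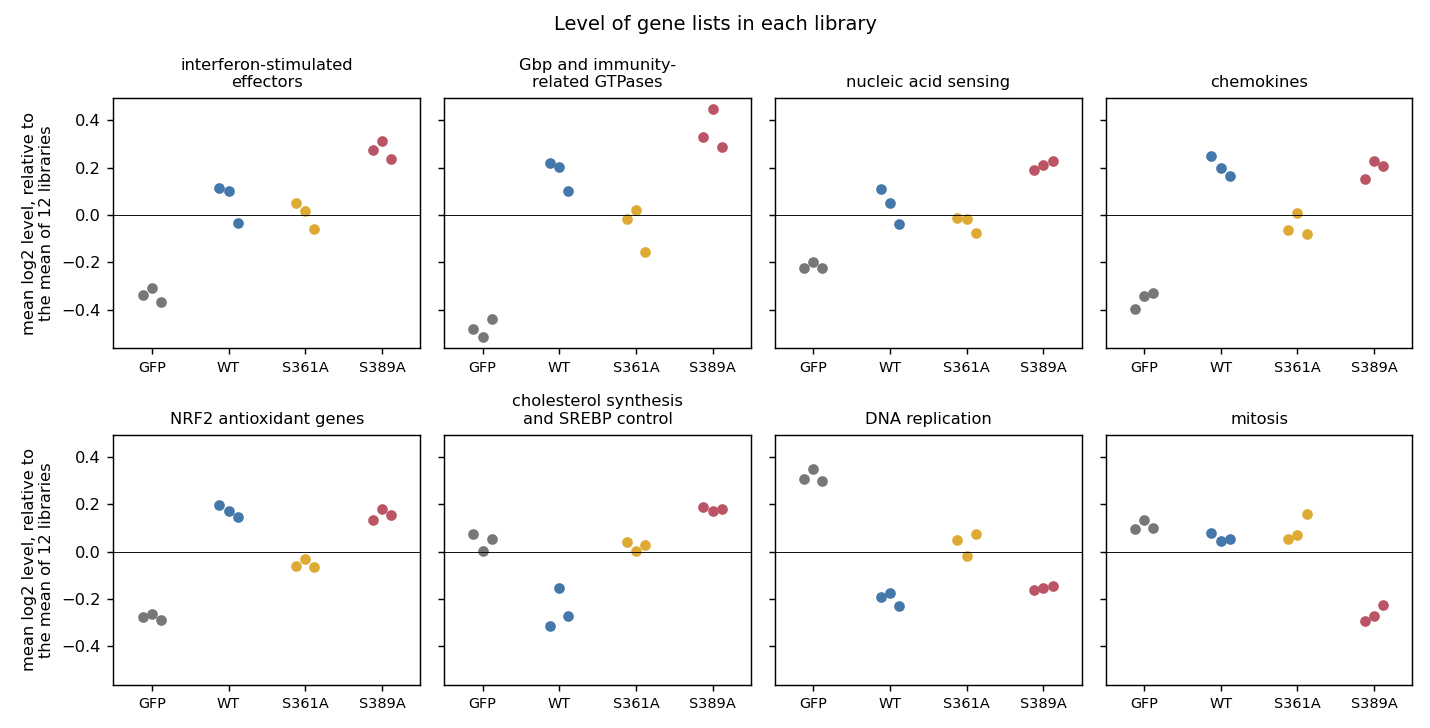
Each point is 1 library, and its height is the mean log2 level over the tested members of a list, relative to the mean of the 12 libraries. IRX3_S389A points lie above IRX3_S361A points in the interferon, GTPase, sensing, chemokine, NRF2 and cholesterol panels and below them in the replication and mitosis panels.

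Cholesterol synthesis genes, which the transcription factor SREBP2 controls, were higher in 10 of 26 tested cases and lower in 0 (9 and 1 with equal totals), and the median log2 difference was 0.13. Cyp51 (ENSMUSG00000001467.5, chromosome 5, 4081145 to 4104746 in GRCm38, minus strand), a demethylase of the sterol pathway, held 393, 353 and 351 normalized counts with IRX3_S361A and 482, 523 and 534 with IRX3_S389A. The mutants did not overlap, and Cyp51 rose by 0.49 on the log2 scale (SE 0.08, adjusted p = 4.67e-05 in limma). The synthase gene Hmgcs1 rose by 0.30, Sqle by 0.33 and the feedback gene Insig1 by 0.31 on the log2 scale. The members of the list averaged 0.17 to 0.19 in the IRX3_S389A libraries on the log2 scale relative to all 12 libraries, 0.002 to 0.04 in IRX3_S361A, 0.003 to 0.07 in GFP and -0.32 to -0.16 in IRX3_WT. IRX3_WT thus lay below both mutants for this list.

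Promoters of the sterol genes were searched for TCACNCCAC, the core of the sterol response element, on either strand of the same 250 bases. It was found in 1 of 19 members with a promoter in the table, Hmgcs1, and in 1.05% of all promoters. The window (GRCm38.p6, gene strand) has the motif in capitals and shows the single match of the list.
Hmgcs1, chr13:119690189-119690247: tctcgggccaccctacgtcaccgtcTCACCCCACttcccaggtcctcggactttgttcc
The NF-kappaB core, GGGA followed by 4 bases of any kind and CC, was found in 25.9% of tested genes with a promoter. Shares were 9 of 19 sterol genes (47.4%), 9 of 21 genes of the NF-kappaB list (42.9%) and 5 of 12 chemokines (41.7%). It was in 8 of 25 mitosis genes (32.0%) and 13 of 43 effectors (30.2%). Nucleic acid sensors held it in 3 of 16 cases (18.8%) and GTPases in 1 of 9 (11.1%). Among genes higher with IRX3_S389A the share was 28.6%, and among genes lower 25.4%.

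Lipid genes outside that pathway were counted in 2 lists. Of 15 fatty acid synthesis genes 0 were higher and 1 lower (0 and 2 with equal totals), the elongase gene Elovl1, which fell by 0.14 on the log2 scale with a call that was lost without IRX3_S361A replicate 1, 2 or 3 or IRX3_S389A replicate 1 or 2 (limma adjusted p = 0.0503 to 0.152). Among 16 genes of cholesterol efflux and LXR receptors 3 were higher and 0 lower (3 and 2 with equal totals). Lpl, the lipoprotein lipase gene, held 52528, 49397 and 47939.8 normalized counts with IRX3_S361A and 62443, 64276 and 68044 with IRX3_S389A, and rose by 0.38 on the log2 scale (limma adjusted p = 0.00425). The lysosomal cholesterol genes Lipa and Npc2 rose by 0.23 and 0.16 on that scale. The efflux transporter genes Abca1 and Abcg1 did not pass, with log2 differences of -0.03 and -0.04.

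Glycolysis and HIF1A target genes were higher in 13 of 26 tested cases and lower in 0, and the median log2 difference was 0.15. The 13 higher were 7 under plain settings. The hexokinase gene Hk1 held 2438, 2297 and 2344 normalized counts with IRX3_S361A and 2836, 2833 and 2724 with IRX3_S389A. Without any overlap of the libraries, Hk1 rose by 0.25 on the log2 scale (limma adjusted p = 8.92e-05). The phosphofructokinase gene Pfkp rose by 0.22, the glucose transporter gene Slc2a1 by 0.22, Pgam1 by 0.20 and Pgk1 by 0.15 on that scale. Of 24 genes of oxidative phosphorylation 0 passed in either direction by limma, edgeR on all libraries or DESeq2, and 1 had an unadjusted p under 0.05 (0 higher and 1 lower passed with equal totals). Of 13 mitochondrially encoded genes 0 passed by these 3 tests and 1 had an unadjusted p under 0.05. Their medians of 0.03 and 0.07 on the log2 scale were -0.03 and 0.02 with equal totals.

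Antioxidant targets of the transcription factor NRF2 were higher in 9 of 15 tested cases and lower in 0, and the median log2 difference was 0.21. Prdx1 (ENSMUSG00000028691.12, chromosome 4, 116685544 to 116700822 in GRCm38, plus strand), which reduces peroxides, held 32857, 34000.1 and 33950.5 normalized counts with IRX3_S361A and 42889.5, 44148 and 45816 with IRX3_S389A. The groups did not overlap, and Prdx1 rose by 0.40 on the log2 scale (SE 0.03, adjusted p = 1.51e-11 in limma). The heme oxygenase gene Hmox1 rose by 0.32, Srxn1 by 0.28, Sqstm1 by 0.26 and the thioredoxin reductase gene Txnrd1 by 0.21 on that scale. Nfe2l2, which encodes NRF2, did not pass, with a log2 difference of 0.08. In the unfolded protein and amino acid response 1 of 20 genes was higher and 3 were lower. Of all genes tested 7.00% were higher and 3.16% lower. Chac1, a glutathione-degrading enzyme induced by ATF4, held 85.0, 58.6 and 84.4 normalized counts with IRX3_S361A and 34.1, 42.3 and 36.6 with IRX3_S389A, without overlap. It fell by 0.98 on the log2 scale (SE 0.19, adjusted p = 0.000469 in limma), Atf4 itself by 0.17 and Herpud1 by 0.28. The call of Atf4 was lost without IRX3_S361A replicate 3 or IRX3_S389A replicate 3 (limma adjusted p = 0.0575 to 0.0636). Ppp1r15a, which restores translation after stress, rose by 0.22, and the chaperone gene Hspa5 did not pass, with a log2 difference of 0.04.

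Matrix, integrin and motility genes were higher in 11 of 22 tested cases and lower in 1, and the median log2 difference was 0.25. The gene with the smallest p of the whole comparison was Mmp12 (ENSMUSG00000049723.14, chromosome 9, 7344381 to 7369499 in GRCm38, plus strand), the macrophage elastase gene. It held 14876, 15579 and 14158 normalized counts with IRX3_S361A and 20789.8, 20884 and 22185 with IRX3_S389A, without overlap, and rose by 0.52 on the log2 scale (SE 0.04, adjusted p = 1.98e-12 in limma). Itgb8, an integrin subunit that activates latent TGF-beta, held 898, 940.3 and 864 normalized counts against 1301, 1362 and 1444, and rose by 0.60 on that scale. All 3 IRX3_WT libraries held more Itgb8 than either mutant, at 2359, 2238 and 2302. The collagenase gene Mmp13 rose by 0.38, the osteopontin gene Spp1 by 0.31 and the integrin gene Itga4 by 0.36 on the log2 scale. Itgal, the alpha chain of the integrin LFA-1, fell by 0.26 on the log2 scale, with 16982, 16914 and 16416 normalized counts against 14176, 14420.4 and 13462.

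Genes that define the macrophage moved in both directions. Of 24 identity and growth factor receptor genes 5 were higher and 3 lower (3 and 8 with equal totals), and the median log2 difference was -0.02. The receptors for dying cells Axl and Mertk rose by 0.31 and 0.29 and the Fc receptor gene Fcgr1 by 0.22, while the lysozyme gene Lyz2 and Adgre1, which encodes the F4/80 antigen, fell by 0.13 and 0.12 on the log2 scale. The summed level of 8 macrophage markers was 416752 to 429929 normalized counts with IRX3_S361A and 393368 to 406993 with IRX3_S389A, while 2 of the 8 were higher and 2 lower and the median log2 difference was 0.003. Their mean log2 level relative to all 12 libraries was 0.004 to 0.06 and 0.06 to 0.08. In bulk samples fewer cells of a type and less RNA per cell cannot be told apart. The count of 5 was 3 without IRX3_S361A replicate 3 or IRX3_S389A replicate 2 or 3. Among 20 scavenger, complement and lectin receptors 6 were higher and 5 lower (4 and 7 with equal totals), and the median of 0.002 was -0.05 with equal totals. The complement gene C3 and the lipid scavenger gene Cd36 rose by 0.26 and 0.24, while the scavenger receptor gene Stab1 fell by 0.29 and the complement genes C1qa and C1qc by 0.17 and 0.17 on the log2 scale. Without IRX3_S389A replicate 3 the 5 lower were 3, and under plain settings 3 were higher and 1 lower. Of 25 lysosome genes 5 were higher and 1 lower (2 and 2 with equal totals), with Psap up by 0.17 and the proton pump gene Atp6v0d2 by 0.39 on the log2 scale. Tfe3, a regulator of lysosome genes, fell by 0.15 on that scale, a call lost without IRX3_S389A replicate 3 (limma adjusted p = 0.0821). The lysosome count of 5 was 3 without IRX3_S361A replicate 3 or IRX3_S389A replicate 2, and 2 under plain settings. Of 9 osteoclast genes 3 were higher and 0 lower (1 and 0 with equal totals). They were Atp6v0d2, the fusion gene Dcstamp by 0.29 on the log2 scale and the kinase gene Src by 0.15 on that scale. The calls of Dcstamp and Src were lost with equal totals. That of Dcstamp was also lost without IRX3_S361A replicate 1 or 3 or IRX3_S389A replicate 1 or 3 (limma adjusted p = 0.0655 to 0.156), and that of Src without IRX3_S361A replicate 2 or 3 or IRX3_S389A replicate 1 or 2 (limma adjusted p = 0.0585 to 0.0793).

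Of 30 markers of other blood and stromal lineages 9 were abundant enough to be tested, and 0 passed by limma, edgeR or DESeq2 or had an unadjusted p under 0.05. The 6 neutrophil markers summed to 18.2 to 25.8 normalized counts with IRX3_S361A and 21.3 to 29.2 with IRX3_S389A, and the 7 lymphocyte markers to 15.1 to 24.3 and 23.8 to 35.6. The 5 dendritic cell markers summed to 129 to 145 and 135 to 176, and the 6 stromal and endothelial markers to 61.3 to 102 and 65.4 to 79.3. The 6 erythroid, megakaryocyte and mast cell markers, mostly the platelet factor gene Pf4, summed to 3524 to 3721 and 3381 to 3585. Ranges of the mutants overlapped in each of these lists, and the part of such cells in the results was not tested beyond these values.

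Outside the lists, the largest rises chosen by rule were in genes of low abundance. Serpinb9b, a serine protease inhibitor gene, held 55.7, 37.8 and 44.2 normalized counts with IRX3_S361A and 102, 91.6 and 85.4 with IRX3_S389A. The mutants did not overlap, and Serpinb9b rose by 1.02 on the log2 scale (SE 0.20, adjusted p = 0.000469 in limma), 2.03-fold. The glutathione transferase gene Gsta3 rose by 1.01 and Tnfsf4, which encodes the T cell costimulator OX40L, by 0.98 on the log2 scale. Tnfsf4 held 85.0, 85.5 and 94.5 normalized counts against 174, 161 and 191, above the IRX3_WT values of 133, 141 and 109. Rgs16, a brake on G protein signalling, rose by 0.96, the kinesin gene Kif5c by 0.92, the cathepsin inhibitor gene Cst7 by 0.78 and the phospholipase gene Pla2g16 by 0.77 on that scale. The amino acid transporter gene Slc6a20a, with 21.3, 18.9 and 14.1 normalized counts against 54.8, 42.3 and 23.4, rose by 1.05 on the log2 scale, a call lost without IRX3_S361A replicate 3 or IRX3_S389A replicate 1 or 2 (limma adjusted p = 0.0653 to 0.132). Crybg2 rose by 1.10 on the log2 scale, a call lost without IRX3_S389A replicate 3 (limma adjusted p = 0.0938).

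Among the largest falls outside the lists that were chosen by rule, Cd55 was the most abundant. This gene (ENSMUSG00000026399.12, chromosome 1, 130439027 to 130462744 in GRCm38, minus strand) encodes a product that shields cells from complement. It held 1052, 977 and 1112 normalized counts with IRX3_S361A and 608, 564 and 617 with IRX3_S389A. Every IRX3_S389A library lay below all 9 others and every IRX3_S361A library above them, and Cd55 fell by 0.81 on the log2 scale (SE 0.06, adjusted p = 1.51e-11 in limma), 1.75-fold. GFP libraries, at 784, 837 and 824, and IRX3_WT libraries, at 854, 777 and 787, lay between. Several other falls belong to cell division: the mitotic exit inhibitor gene Fbxo5 fell by 0.84, the cohesin acetyltransferase gene Esco2 by 0.86, Cdca2 by 0.79 and the kinetochore gene Ska3 by 0.78 on the log2 scale. The call of Esco2 was lost without IRX3_S361A replicate 1 or IRX3_S389A replicate 1 or 3 (limma adjusted p = 0.0503 to 0.0613), and that of Ska3 without IRX3_S361A replicate 1 or 2 or IRX3_S389A replicate 1 (limma adjusted p = 0.0504 to 0.0852). Twnk, the mitochondrial DNA helicase gene, held 42.5, 47.7 and 49.2 normalized counts against 28.9, 37.2 and 11.2, and its call was lost without IRX3_S361A replicate 2 or 3 or IRX3_S389A replicate 3 (limma adjusted p = 0.0738 to 0.308).

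Where each mutant lay relative to wild-type IRX3 and GFP was read from the other 6 libraries, which share no sample with the mutants. Between IRX3_WT and GFP 5288 genes passed the test (39.6% of those tested). Of the 1359 genes called between the mutants 988 were among them (72.7% of the former and 18.7% of the latter). In 834 of the 988 (84.4%) the sign was the same: IRX3_S389A differed from IRX3_S361A in the direction in which IRX3_WT differed from GFP. The 4300 genes called between IRX3_WT and GFP alone had the same sign in 60.3%. With equal totals the share was 86.0% (1008 of 1172). Of the 749 rises among the 988 genes, 662 were also higher with IRX3_WT than with GFP and 87 lower. Of the 239 falls, 172 were also lower with IRX3_WT and 67 higher.

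Position between the controls did not describe most called genes. Both mutant means lay between the GFP and IRX3_WT means in 282 of the 1359, with IRX3_S389A nearer IRX3_WT in 246 of these and IRX3_S361A nearer in 36. Among the 936 rises the IRX3_S389A mean was above both the IRX3_WT and the GFP mean in 642 genes, Ifit2 and Serpinb9b among them. Among the 423 falls it was below both in 293, among them Cd55, Chac1, Top2a and Plk1. IRX3_S361A was below both in 165 of the rises and above both in 190 of the falls, where Cd55 again belongs.

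**Figure D5:**
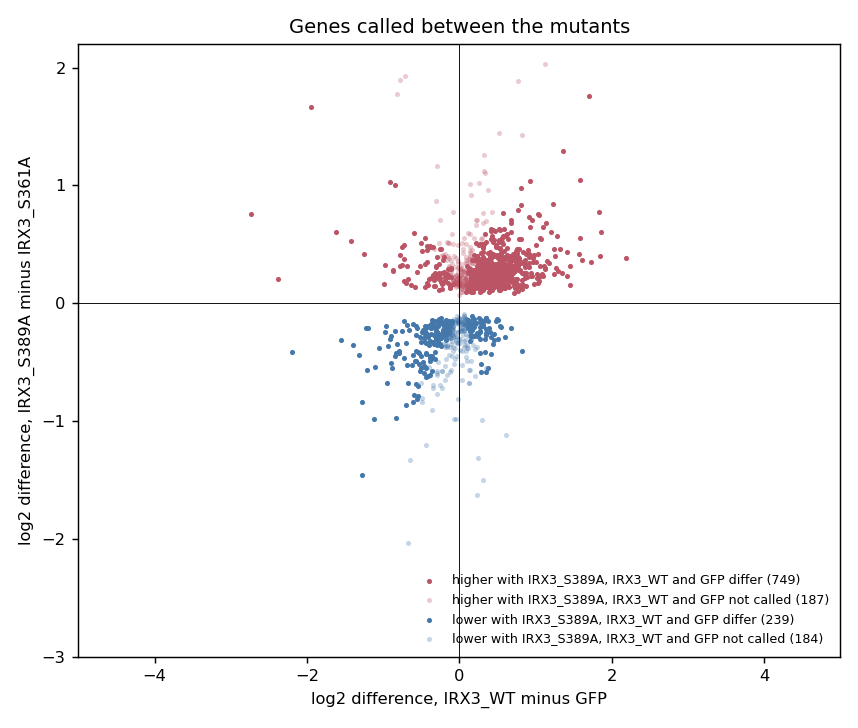
Points are the 1359 genes called between the mutants, with the log2 difference IRX3_WT minus GFP on the x axis and IRX3_S389A minus IRX3_S361A on the y axis. Dark points are the 988 genes that also passed between IRX3_WT and GFP, and most lie in the upper right (662) or lower left (172); Irx3 lies outside the x range and is not drawn.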

How the data were processed

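Total RNA of 12 libraries (4 constructs, 3 each) was sequenced. Per the submitters' processing notes, the tools were Trimmomatic, HISAT2 2.1.0 and StringTie 1.3.5 with mm10; the counter, its strand setting, the annotation and the size-factor tool were not given in the sources used here. The deposited values are a normalized signal: every value was a whole multiple, within 1e-06, of 1 step per library, as gene counts divided by a size factor give. Division by the step gave whole reads in all 12 libraries, and in 3 of them the step lay within 1% of 1. Gene IDs were matched to GENCODE M21 (99.531%).

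Log2(value + 1) was fitted with limma 3.58.1 (trend and robust settings, R 4.3.3) over all 12 libraries, with Benjamini-Hochberg adjustment over the 13369 genes that reached 10 normalized counts in 3 or more libraries. Fold changes are on that scale and understate the change of low genes. Symbols name genes by a rule: Irx3, 10 cytokine and enzyme genes, Ifnb1 and other members of the interferon induction list, the 15 largest rises and falls without overlap and a mean of at least 20, and up to 6 called members of each list by p; other members named in the text were chosen after their values were seen. The members and lists were chosen with earlier results of these data known. Genes with near copies, or at least 20% of exon bases shared with another gene, are uncertain, since it is not known whether counting used strand. Alternatives were other pseudocounts, filters, scaling, edgeR 4.0.16 and DESeq2 1.42.0 on recovered reads, a replicate block, a GC correction and leaving out each library. The code was tested on simulated data. The floor of 3 reads covers counting error only. A few genes that the rule or lists hold are not reported here.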

Additional observations from a re-analysis of the deposited data

How the results depend on the processing

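The test called 1359 genes, 936 higher and 423 lower, 110 of them at least 1.5-fold apart. With equal totals 597 were higher and 1053 lower, and 1020 of the 1359 were called again. Limma without trend and robust settings called 684 genes (491 higher, 193 lower). On recovered reads, edgeR called 1347, of which 1290 were shared, and DESeq2 1303, of which 49 were at least 1.5-fold apart by its own estimates. DESeq2 gave an adjusted p for 168 of the 190 named genes that passed the main test. Genes it left without one could not be called. In an alternative chosen after seeing the data, edgeR was run on the 9 libraries whose step lay over 1% from 1. There edgeR called 428 genes (310 higher, 118 lower, 53 at least 1.5-fold apart). The 3 libraries left out had also given whole reads. This fit has fewer samples, with only replicate 1 of IRX3_S361A against replicates 1 and 3 of IRX3_S389A. With 1 library in a group, its counts cannot show how stable the main calls were. The cause of the other shifts was not tested. Leaving out 1 library at a time gave 904 to 1415 genes, 659 to 966 higher, 245 to 449 lower and 82 to 132 at least 1.5-fold apart; the lowest total, and the lowest count in each direction, came without IRX3_S361A replicate 3. Of the 1359 genes 656 passed in all 12 of these fits, as did 137 of the 190 named genes that passed the test. Other pseudocounts, other filters, the 6 libraries alone and the GC correction gave 1125 to 1483 genes. Across genes, the log2 difference had a Spearman correlation of -0.141 with transcript GC content, and genes are not independent replicates.

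With the replicate number as a block 1322 genes passed (923 higher, 399 lower), and with the block and the GC correction together 1485. Same-numbered libraries of the mutants deviated together only weakly, with correlations of 0.03, 0.021 and 0.026 against -0.022 to -0.003 for different numbers. Each library correlated best with its own number, but the values were under 0.1, so the numbers were not taken as pairs.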

Other observations

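Some differences of a size that passed elsewhere did not pass in genes whose libraries lay far apart within a group. The 3 genes below were chosen after their values were seen. Cebpb, the gene of a transcription factor that LPS induces in macrophages, held 3197 ± 433 normalized counts with IRX3_S361A and 1776 ± 952 with IRX3_S389A (SD, n = 3 each). Its log2 difference of -0.98 (SE 0.44) had an adjusted p of 0.251 in limma, and the groups overlapped. Cebpb shares 20.7% of its exon bases with another gene. Gnas, which encodes a G protein subunit, held 1036 ± 429 normalized counts against 516 ± 243, with a difference of -1.02 on the log2 scale (limma adjusted p = 0.189) and overlapping groups. The mitochondrial gene mt-Atp8 held 11.1 ± 7.95 normalized counts with IRX3_S361A and 20.7 ± 0.408 with IRX3_S389A, a log2 difference of 1.03 (limma adjusted p = 0.0694).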
